A study of Mus musculus with 6 samples.

Results

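Transcriptional regulators of brown adipocyte identity, 10 genes in all, were followed in brown adipocytes grown and differentiated in culture, namely Ppargc1a, Ppargc1b, Prdm16, Ebf2, Cebpa, Cebpb, Cebpd, Irf4, Ehmt1 and Zbtb16. They were chosen by name for their role, and all 10 were listed among the 22466 genes with a RefSeq transcript in the deposited table. Precursor cells of the stromal-vascular fraction of interscapular brown fat from male mice of the 129SvEvS1 strain, aged 5 to 6 weeks, were differentiated in culture, with 3 cultures from wildtype mice (WT replicates 10, 11 and 12) and 3 from UCP1(-/-) mice (Ucp1-KO replicates 13, 14 and 15). Both genotypes passed through 2 days of induction with isobutylmethylxanthine, indomethacin, dexamethasone, insulin, T3 and rosiglitazone and 7 days with insulin, T3 and rosiglitazone in medium with high glucose, which was replaced by medium with less glucose at the end of differentiation. The labels call the cultures independent, and how many mice went into each is not given in the sources used here. Abundance is given in RPKM, reads scaled by the length of the transcript and by the depth of the culture. The deleted gene itself, Ucp1, stood at 28.4% of the WT mean in Ucp1-KO cells, with 981 to 1775 RPKM in WT cultures and 307 to 409 in Ucp1-KO cultures, a log2 fold change of -1.78 with an unadjusted p of 0.000157 that did not pass the threshold after adjustment (limma adjusted p = 0.868). The study describes the transcript left by this allele as one that lacks part of its exons and gives no functional protein.

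Brown adipocytes arise from precursors in which EBF2 and PRDM16 direct the nuclear receptor PPARγ to brown fat genes and, with the histone methyltransferase EHMT1, hold back the genes of other lineages. C/EBPβ and C/EBPδ are early factors of fat cell differentiation, and C/EBPα follows them and maintains the mature state together with PPARγ. The coactivators PGC-1α and PGC-1β carry no DNA-binding domain of their own and drive mitochondrial and thermogenic genes through nuclear receptors, and IRF4 is a partner of PGC-1α in the response to cold. Zbtb16 encodes the zinc finger protein PLZF, a glucocorticoid-responsive transcription factor.

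The regulators covered more than 2 orders of magnitude of abundance, and the C/EBP genes held both upper places. Cebpa was the most abundant with a mean of 151 ± 14.7 RPKM over all cultures (SD, n = 6), which was rank 341 of 22466 genes. Cebpb followed with 66.6 ± 5.92 RPKM at rank 824, and Ebf2 with 22.9 ± 2.78 RPKM at rank 2480. These 3 genes were separate from each other in level, with no overlap of their cultures. Ppargc1b with 15.1 ± 3.53 RPKM and Ppargc1a with 12.6 ± 3.45 RPKM overlapped in range with each other, and Ppargc1b, but not Ppargc1a, overlapped with Ebf2, although Ebf2 was above Ppargc1b in 6 of 6 cultures and Ppargc1b above Ppargc1a in 5 of 6. Ehmt1 with 6.81 ± 0.617 RPKM and Cebpd with 6.57 ± 2.39 RPKM overlapped in range, and each was higher in 3 of 6 cultures. Their order followed genotype, with Cebpd above Ehmt1 in every WT culture and below it in every Ucp1-KO culture. In WT replicate 10 they were close, at 5.86 RPKM for Cebpd and 5.82 for Ehmt1. Zbtb16 had 4.20 ± 0.669 RPKM and Prdm16 2.93 ± 0.323 RPKM, with overlapping ranges but Zbtb16 higher in 6 of 6 cultures. Irf4 was the least abundant with 1.24 ± 0.648 RPKM at rank 10867, and all its cultures lay below all those of Prdm16 (SD, n = 6 each). Read numbers behind these values were computed from the RPKM and ran from 45 for Irf4 in WT replicate 11 to 7913 for Cebpa in Ucp1-KO replicate 14, so that every value stood above the floor of 3 reads.

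**Figure D1:**
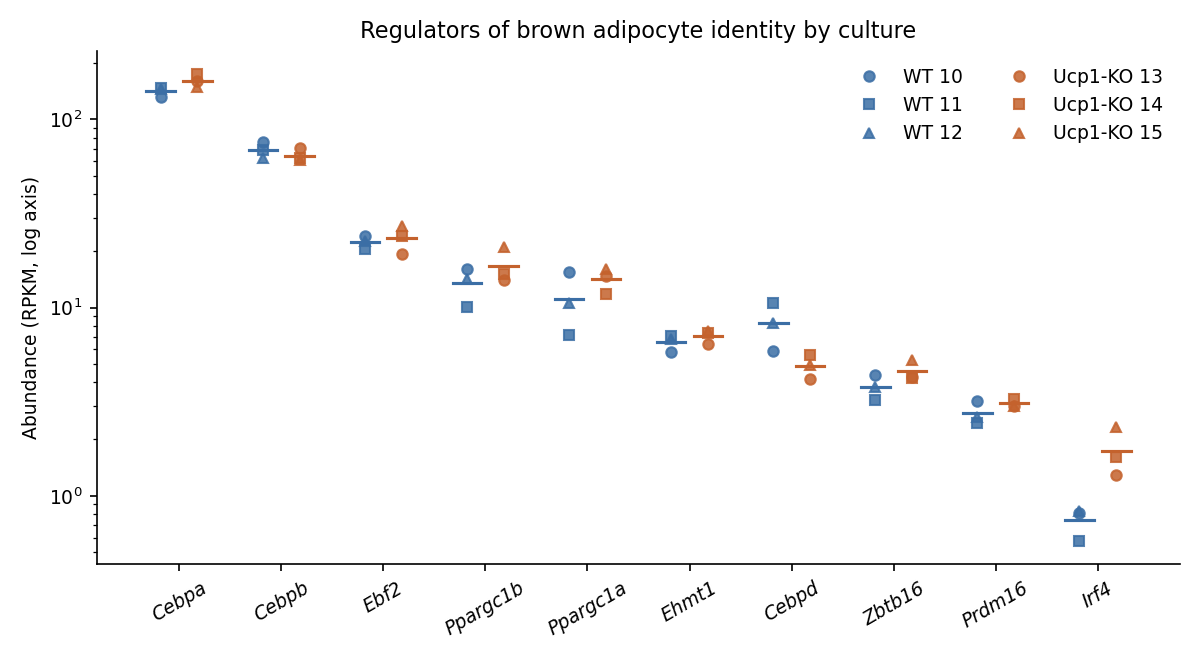
Abundance of each regulator in RPKM on a log axis, with 1 point per culture (blue WT, orange Ucp1-KO) and a bar at the mean of the 3 cultures of a genotype. Genes are ordered by their mean over 6 cultures, from Cebpa at 151 RPKM to Irf4 at 1.24 RPKM, and the genotypes do not overlap for Cebpa, Cebpd and Irf4.

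Upstream sequences are shown for Irf4 and Cebpa, which were higher in every Ucp1-KO than in every WT culture, and for Ppargc1a, whose level moved most between WT cultures. The RefSeq promoter table of GRCm38.p6 held 6 of the 10 genes, and Ppargc1b, Ebf2, Cebpd and Zbtb16 are named only. Each line gives the 250 bases before the annotated start, 5′ to 3′ on the strand of the gene. The Ppargc1a window lies within the span of that gene (51454249 to 52115853), so the start used is not the outermost one. Whether the Ppargc1a transcript measured here begins at that start was not tested. Capitals mark the TATA box letters TATAAA in Irf4 (chr13:30748983-30749232, forward strand) and Cebpa (chr7:35119043-35119292, forward strand), and in Ppargc1a (chr5:51567726-51567975, reverse strand) CGTCA, the reverse complement of the core letters TGACG of the cAMP response element.
Irf4: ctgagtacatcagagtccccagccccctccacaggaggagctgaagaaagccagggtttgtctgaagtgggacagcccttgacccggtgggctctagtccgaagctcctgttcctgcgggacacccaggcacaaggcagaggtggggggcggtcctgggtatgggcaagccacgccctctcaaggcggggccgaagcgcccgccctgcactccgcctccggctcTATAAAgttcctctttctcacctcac
Cebpa: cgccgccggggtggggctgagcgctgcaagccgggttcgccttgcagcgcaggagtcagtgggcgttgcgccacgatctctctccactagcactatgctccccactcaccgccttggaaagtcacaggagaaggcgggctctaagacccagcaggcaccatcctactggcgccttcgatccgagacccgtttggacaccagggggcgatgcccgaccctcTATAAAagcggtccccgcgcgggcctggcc
Ppargc1a: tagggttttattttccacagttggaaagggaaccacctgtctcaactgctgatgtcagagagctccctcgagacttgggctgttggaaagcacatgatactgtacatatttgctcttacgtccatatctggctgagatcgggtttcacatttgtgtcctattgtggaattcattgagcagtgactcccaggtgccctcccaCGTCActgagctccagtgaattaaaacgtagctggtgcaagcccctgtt
TATAAA began 26 bases before the start of Irf4 and 30 bases before that of Cebpa, and was found in 2 of the 6 promoters and in 12.4% of all 32851 promoters when both strands were searched. TGACG was found in Ppargc1a and, at 3 places, in Cebpb, and in 17.8% of all promoters. The C/EBP letters TTGCNNAA were in 0 of the 6 windows and in 9.56% of all promoters. TTGCG, the core letters of a C/EBP site, was found in Cebpa alone among the 6 and in 14.5% of all promoters. A match of letters is a description and not a binding site.

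Between genotypes, 0 of the 10 regulators passed the threshold of 0.05 in limma after adjustment over all 16865 RefSeq transcripts tested, where 0% of all transcripts passed and the smallest adjusted p was 0.868. The study compared the same cultures with another test, DESeq2, and lists Irf4 and Ucp1 among its differentially expressed genes. No other of the 10 regulators is on that list. The limma test used here passed neither Irf4 nor Ucp1 after adjustment. Without adjustment, limma gave p under 0.05 for 2 regulators, beside 5.54% of all transcripts. These were Irf4, higher in Ucp1-KO cells as were 2.3% of all transcripts by that rule, and Cebpd, lower as were 3.24%. With WT replicate 10 left out there were 3, Ppargc1a being the other one, and Irf4 alone remained without WT replicate 11, WT replicate 12 or Ucp1-KO replicate 13. The share of all transcripts was not worked out with a culture left out, so these counts cannot be read against a background. Mean abundance was higher in Ucp1-KO cells for 8 of 10 regulators and lower for Cebpb and Cebpd, where 49.6% of all transcripts had a log2 fold change above 0. The median log2 fold change was 0.16, against -0.0016 for all transcripts tested. The genotypes did not overlap for 3 regulators, Irf4, Cebpd and Cebpa, and for 11.2% of all transcripts. The smallest p that exact two-sided permutation of 3 and 3 cultures allows is 0.1.

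**Figure D2:**
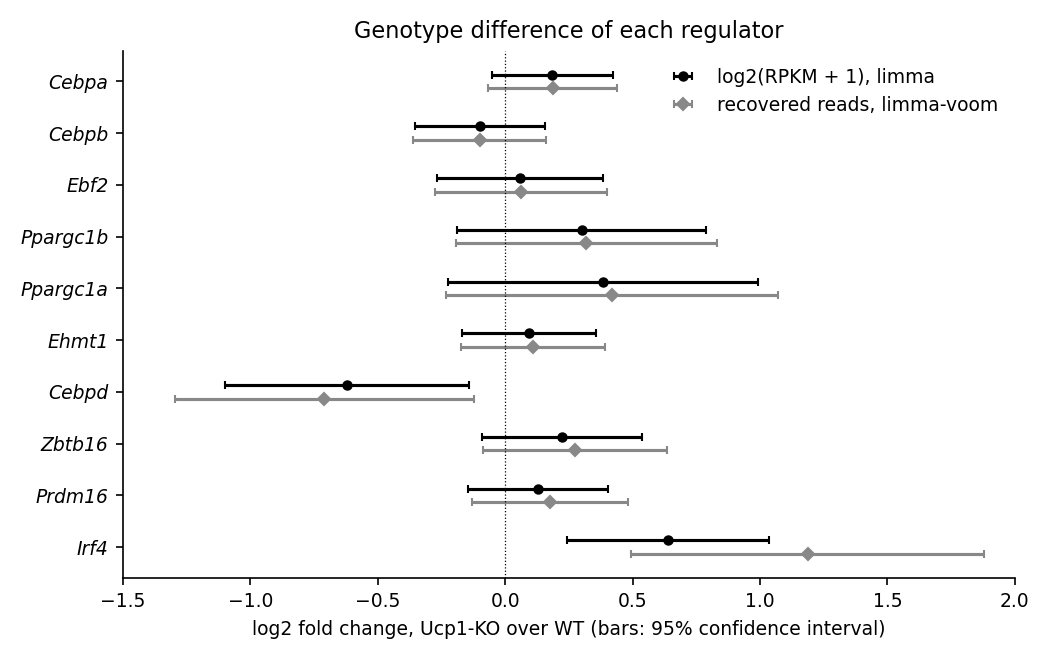
Log2 fold change of each regulator, Ucp1-KO over WT, with 95% confidence intervals (n = 3 against 3), from limma on log2(RPKM + 1) (black circles) and from limma-voom on reads derived from those values (grey diamonds). On both scales the intervals of Irf4 and Cebpd exclude 0 and those of the other 8 include it.

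Irf4 was higher in Ucp1-KO cells. It encodes an interferon regulatory factor and lies on chromosome 13 of GRCm38 (30749233 to 30766981). Abundance was 0.813, 0.576 and 0.831 RPKM in WT replicates 10, 11 and 12 and 1.28, 1.61 and 2.32 RPKM in Ucp1-KO replicates 13, 14 and 15. All Ucp1-KO cultures lay above all WT cultures, as did those of 6.04% of all transcripts. The values rested on 65, 45 and 69 reads in WT and 97, 130 and 163 reads in Ucp1-KO cells. Means were 0.740 ± 0.143 and 1.74 ± 0.531 RPKM (SD, n = 3 each), a 2.35-fold difference (exact two-sided permutation test, p = 0.1). On the log2(RPKM + 1) scale the difference was 0.64 (standard error 0.17, 95% confidence interval 0.24 to 1.04, limma unadjusted p = 0.0067, adjusted p = 0.868). Adding 1 RPKM compresses the change of so rare a transcript, and limma-voom on the reads gave 1.19 (standard error 0.29, limma unadjusted p = 0.00485, adjusted p = 0.875). The unadjusted p stayed under 0.05 in all 12 alternative settings, with log2 fold changes from 0.49 to 1.19. Irf4 is on the study's own list of genes that differed in these cultures, so its direction is not independent evidence.

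Cebpd was lower in Ucp1-KO cells, opposite in direction to Irf4. It encodes C/EBPδ and lies on chromosome 16 (15887286 to 15889545). Abundance was 5.86, 10.6 and 8.31 RPKM in WT replicates 10, 11 and 12 and 4.19, 5.57 and 4.96 RPKM in Ucp1-KO replicates 13, 14 and 15. The genotypes did not overlap, as for 5.15% of all transcripts on the lower side, but the lowest WT culture, replicate 10, lay only 0.287 RPKM above the highest Ucp1-KO culture. Means were 8.24 ± 2.35 and 4.91 ± 0.691 RPKM (SD, n = 3 each), which was 59.6% of the WT mean (exact two-sided permutation test, p = 0.1). On the log2(RPKM + 1) scale it was lower by a difference of -0.62 (standard error 0.20, 95% confidence interval -1.10 to -0.14, limma unadjusted p = 0.0184, adjusted p = 0.868). The unadjusted p was above 0.05 without WT replicate 11 (0.0536), without WT replicate 12 (0.0529) and without Ucp1-KO replicate 13 (0.0555, limma). Without WT replicate 11 the difference was -0.44, and without WT replicate 10 it was -0.82.

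The level of Cebpd depended on the transcript model, its direction did not. The RefSeq transcript has 2260 bases, and the Ensembl transcript, with 3746 bases, had 11.6 RPKM over all cultures or 1.77 times the RefSeq value. In the Ensembl row the means were 14.5 ± 4.31 RPKM in WT cultures and 8.75 ± 1.24 in Ucp1-KO cultures (SD, n = 3 each), a difference of -0.64 on the log2(RPKM + 1) scale. Spidr, on the opposite strand, shares 322 bases of exon with the RefSeq span and 562 with the Ensembl exons of Cebpd, and the library kit is not described as keeping strand. Reads of these genes cannot be told apart there. Spidr itself had 5.99 RPKM in WT cultures and 5.42 in Ucp1-KO cultures.

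Cebpa, the gene of C/EBPα on chromosome 7 (35119293 to 35121928), was narrowly separate between genotypes. Abundance was 131, 148 and 145 RPKM in WT replicates 10, 11 and 12 and 161, 174 and 148 RPKM in Ucp1-KO replicates 13, 14 and 15. WT replicate 11 and Ucp1-KO replicate 15 were 0.387 RPKM apart. Means were 141 ± 8.94 and 161 ± 13.02 RPKM (SD, n = 3 each), with a log2 fold change of 0.19 (standard error 0.10, 95% confidence interval -0.05 to 0.42, limma unadjusted p = 0.108, adjusted p = 0.871). Cebpb, the gene of C/EBPβ on chromosome 2 (167688915 to 167690432), had 75.7, 68.6 and 62.6 RPKM in WT cultures and 70.3, 62.1 and 60.5 in Ucp1-KO cultures. The genotypes overlapped, and the log2 fold change was -0.10 (standard error 0.11, 95% confidence interval -0.35 to 0.16, limma adjusted p = 0.906). It was -0.03 without WT replicate 10, -0.06 without Ucp1-KO replicate 15, -0.17 without WT replicate 12 and -0.16 without Ucp1-KO replicate 13. Tmem189, on the opposite strand, shares 20.7% of the exon bases of Cebpb and had 19.6 RPKM in WT cultures and 18.4 in Ucp1-KO cultures.

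Ratios within a culture do not depend on its read total. Cebpa exceeded Cebpd 22.4, 14.002 and 17.5 times in WT replicates 10, 11 and 12 and 38.4, 31.3 and 29.9 times in Ucp1-KO replicates 13, 14 and 15. The genotypes did not overlap, with a difference of 0.90 on the log2 scale (exact two-sided permutation test, p = 0.1, Benjamini-Hochberg adjusted p = 0.3 over 3 ratios). The ratio of Cebpa to Cebpb ran from 1.73 to 2.81 over all cultures and that of Ppargc1a to Ppargc1b from 0.706 to 1.05, and both overlapped between genotypes (exact two-sided permutation tests, p = 0.2 and p = 0.5, adjusted p = 0.3 and p = 0.5).

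On the log2(RPKM + 1) scale the coactivator genes had the largest residual SD of the 10 regulators. Ppargc1a, which encodes PGC-1α and lies on chromosome 5 (51454249 to 52115853), had 15.5, 7.12 and 10.5 RPKM in WT replicates 10, 11 and 12 and 14.7, 11.8 and 16.0 RPKM in Ucp1-KO replicates 13, 14 and 15. WT replicate 10 lay among the Ucp1-KO cultures. The log2 fold change was 0.38 (standard error 0.26, 95% confidence interval -0.23 to 0.99, limma adjusted p = 0.876), so that neither no change nor a near doubling was excluded by the interval. Ppargc1b, which encodes PGC-1β on chromosome 18 (61291445 to 61400756), had 16.0, 10.1 and 14.3 RPKM in WT cultures and 14.1, 15.2 and 21.0 in Ucp1-KO cultures. Its log2 fold change was 0.30 (standard error 0.21, 95% confidence interval -0.19 to 0.79, limma adjusted p = 0.876). Both genes were lowest in WT replicate 11 and highest in Ucp1-KO replicate 15. The residual SD of Ppargc1a on the log2(RPKM + 1) scale was 0.39, larger than that of 89.7% of all transcripts tested, and that of Ppargc1b was 0.31. Without WT replicate 10 the log2 fold change of Ppargc1a was 0.64 (limma unadjusted p = 0.0188, adjusted p = 0.415). Without WT replicate 11 it was 0.13 for Ppargc1a and 0.12 for Ppargc1b, and without Ucp1-KO replicate 15 that of Ppargc1b was 0.14.

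For Prdm16, Ebf2, Ehmt1 and Zbtb16, regulators of lineage choice and differentiation, the genotypes overlapped. Prdm16 on chromosome 4 (154316122 to 154637360) had 3.19, 2.44 and 2.64 RPKM in WT replicates 10, 11 and 12 and 2.996, 3.28 and 3.01 RPKM in Ucp1-KO replicates 13, 14 and 15. Its genotypes overlapped through WT replicate 10, and the log2 fold change was 0.13 (standard error 0.12, 95% confidence interval -0.15 to 0.40, limma adjusted p = 0.893), which was 0.07 without WT replicate 11 and 0.21 without WT replicate 10. Ebf2 on chromosome 14 (67233292 to 67430952) had 24.0, 20.5 and 22.5 RPKM in WT cultures and 19.3, 24.1 and 27.1 in Ucp1-KO cultures. The lowest and the highest culture of Ebf2 were thus both Ucp1-KO cultures, and the log2 fold change of 0.06 (standard error 0.14, limma adjusted p = 0.956) became -0.045 without Ucp1-KO replicate 15 and 0.19 without Ucp1-KO replicate 13. Ehmt1 on chromosome 2 (24790769 to 24919643) had 5.82, 7.06 and 6.80 RPKM in WT cultures and 6.399, 7.30 and 7.48 in Ucp1-KO cultures, a log2 fold change of 0.09 (standard error 0.11, limma adjusted p = 0.910). The log2 fold change of Ehmt1 was 0.02 without WT replicate 10, 0.06 without Ucp1-KO replicate 15, 0.14 without WT replicate 11 and 0.15 without Ucp1-KO replicate 13. Zbtb16 on chromosome 9 (48651797 to 48836225) had 4.36, 3.25 and 3.78 RPKM in WT cultures and 4.29, 4.24 and 5.26 in Ucp1-KO cultures. WT replicate 10 of Zbtb16 lay within the Ucp1-KO range, and the log2 fold change was 0.22 (standard error 0.13, 95% confidence interval -0.09 to 0.54, limma adjusted p = 0.876). It was 0.14 without WT replicate 11 and 0.14 without Ucp1-KO replicate 15.

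**Figure D3:**
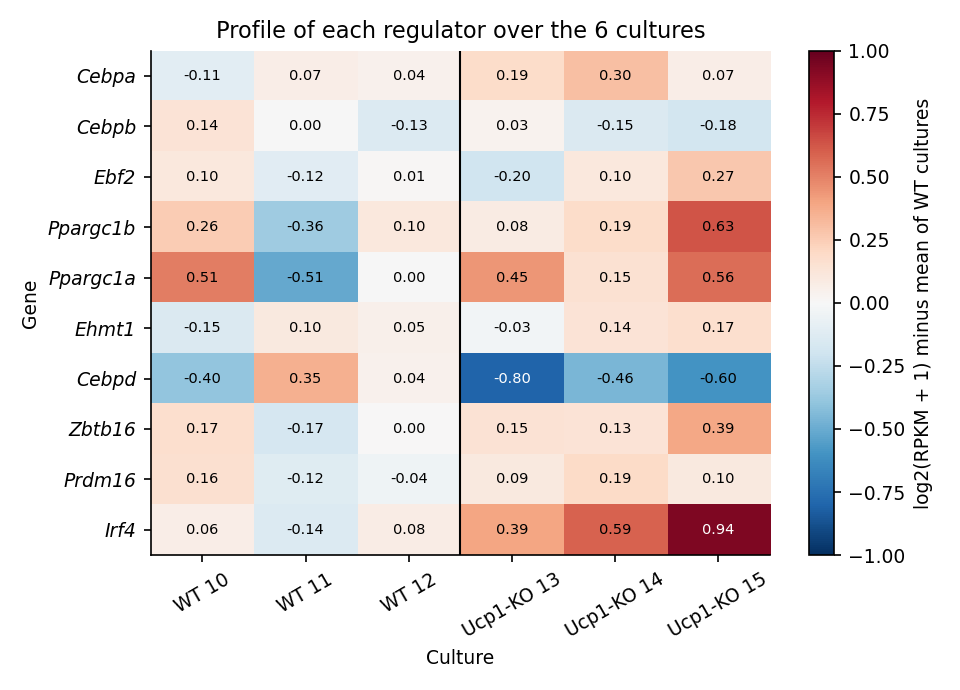
Profile of each regulator over the 6 cultures, as log2(RPKM + 1) minus the mean of the 3 WT cultures, with the value printed in each field and the genotypes divided by a line. WT replicate 11 is lowest for 5 regulators and Ucp1-KO replicate 15 highest for 6, and Cebpd has its highest field in WT replicate 11.

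Single cultures carried much of the pattern. Ucp1-KO replicate 15 was the highest culture for 6 regulators, Ebf2, Ehmt1, Irf4, Ppargc1a, Ppargc1b and Zbtb16, and the lowest for Cebpb. WT replicate 11 had the lowest value for 5, Irf4, Ppargc1a, Ppargc1b, Prdm16 and Zbtb16, and the highest for Cebpd. The highest culture exceeded the lowest 4.03-fold for Irf4, 2.52-fold for Cebpd, 2.25-fold for Ppargc1a and 2.08-fold for Ppargc1b, and between 1.25-fold and 1.62-fold for the other 6.

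Genes with the most similar profile were searched for these 4 regulators among 12259 genes, by the root mean square difference of centred log2(RPKM + 1) values over the 6 cultures. Nearest to Irf4 was Reep6 with a difference of 0.07, where the profile of Irf4 itself had a root mean square of 0.36. Reep6 had 38.7, 31.5 and 38.1 RPKM in WT replicates 10, 11 and 12 and 50.8, 55.0 and 79.4 RPKM in Ucp1-KO replicates 13, 14 and 15, so that it shared the order of Irf4 within the Ucp1-KO cultures. Strip2 and AI450353 followed with 0.08 each. Among those nearest to Cebpd were Loxl2 (0.09), which encodes a lysyl oxidase-like enzyme of the extracellular matrix, and Ephb4 (0.09). Nearest to Ppargc1a were Tlr5 (0.09), Col27a1 (0.12) and Mpzl2 (0.13), and nearest to Ppargc1b were Myo5b (0.07), Hmgb3 (0.07) and Rps6ka5 (0.08). With so many genes and 6 cultures, close profiles are a description only.

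The deposited table listed 81 rows for the 10 genes, of which 15 were RefSeq transcripts. Rows of a gene can share reads and are no replicates. All 8 rows of Irf4 were higher in Ucp1-KO cells without overlap, with differences of log2(RPKM + 1) from 0.56 to 0.72. All 6 rows of Cebpd were lower, from -0.65 to -0.53, and 5 of them did not overlap. For Cebpa, 3 of 4 rows did not overlap. All rows of Ppargc1a (7), Ppargc1b (4), Ebf2 (5) and Zbtb16 (3) were higher and the 2 rows of Cebpb lower in Ucp1-KO cells, all with overlap. Ehmt1 with 24 rows had 22 higher and 2 lower, and 2 of the higher rows did not overlap, at means of 4.64 and 0.09 RPKM. Prdm16 with 18 rows had 14 higher and 4 lower, ranging from -0.46 to 0.27, all with overlap. The share of rows without overlap was not worked out for the whole deposited table. Of the RefSeq rows, Ehmt1 had 4, Ppargc1a 2 and Prdm16 2, and the most abundant is used here.

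**Figure D4:**
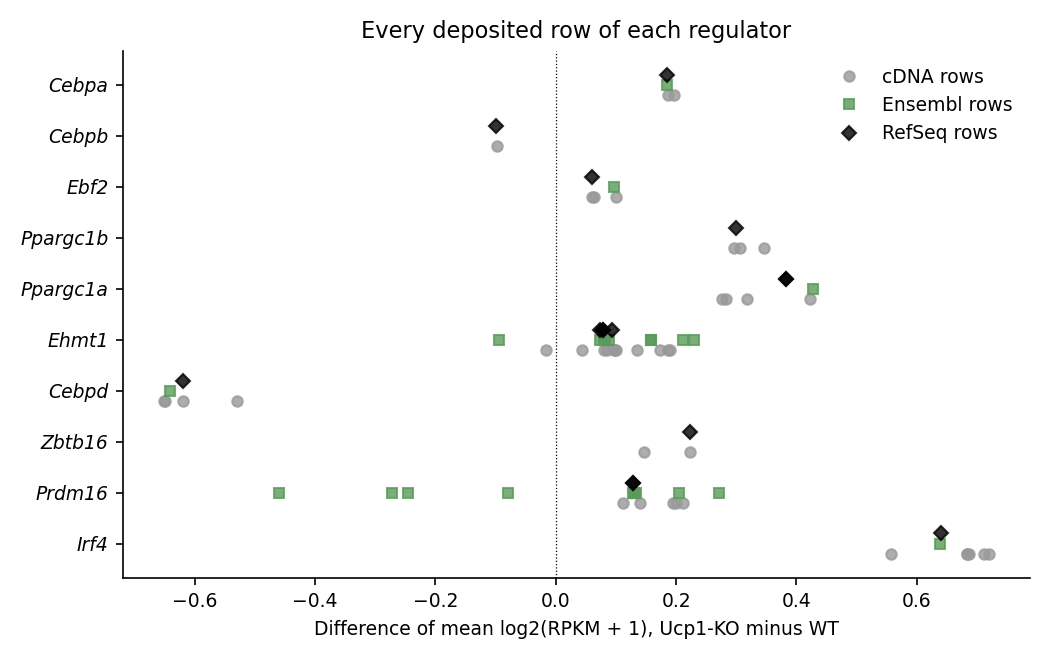
Difference of mean log2(RPKM + 1), Ucp1-KO minus WT, for each of the 81 deposited rows of the 10 regulators, by the annotation of the row (black RefSeq, green Ensembl, grey cDNA). Rows of Irf4 all lie between 0.56 and 0.72 and those of Cebpd between -0.65 and -0.53, while rows of Ehmt1 and Prdm16 lie on both sides of 0.

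Partners and targets of the regulators were taken from lists written by name, and a list gene is counted as higher or lower by the sign of its log2 fold change, a difference of mean log2(RPKM + 1). Together with marker lists there were 17 lists with 177 genes abundant enough to be tested, of which 0 passed an adjusted p under 0.05 in limma and 15 had an unadjusted p under 0.05. This was 8.47% of them beside 5.54% of all transcripts, 6 of them higher and 9 lower. Among the 15 are Ucp1, the deleted gene, and Lum, which is on the study's own list of genes that differed. The lists were also written with earlier results of these data known, so the larger share is partly built in. The number ranged from 6 genes without WT replicate 11 to 25 without WT replicate 10 or without Ucp1-KO replicate 15, where no share of all transcripts was worked out.

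Among 13 tested nuclear receptors and their partners, 0 passed the adjusted threshold, 9 were higher and 4 lower. Pparg, the gene of PPARγ, was the most abundant with 122 ± 4.62 RPKM in WT cultures and 135 ± 8.46 in Ucp1-KO cultures (SD, n = 3 each). Esrra, which encodes the PGC-1 partner ERRα, had 48.9 ± 8.95 and 58.2 ± 4.08 RPKM (SD, n = 3 each). Thrb, a thyroid hormone receptor gene, had a log2 fold change of 0.37 (standard error 0.15, limma adjusted p = 0.868). Vdr, the vitamin D receptor gene, had 2.80, 3.21 and 2.55 RPKM in WT cultures and 2.47, 1.11 and 0.628 in Ucp1-KO cultures, without overlap and with a log2 fold change of -0.75 (standard error 0.27, limma adjusted p = 0.868).

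Of 27 PGC-1 partners and regulators, 18 were higher and 9 lower, with a median log2 fold change of 0.04 and 0 at an unadjusted p under 0.05 in limma (smallest adjusted p = 0.871). Lpin1, which encodes the coactivator lipin, was the most abundant with 100.4 ± 10.9 RPKM in WT cultures and 99.9 ± 13.2 in Ucp1-KO cultures (SD, n = 3 each). Of 17 partners of PRDM16 and EHMT1, 6 were higher and 11 lower, again with 0 at an unadjusted p under 0.05 in limma (smallest adjusted p = 0.871). Ctbp1, which encodes a corepressor bound by PRDM16, had 36.9 ± 1.56 and 34.2 ± 0.825 RPKM (SD, n = 3 each), without overlap and with a log2 fold change of -0.10. Ebf1, a relative of Ebf2, was about as abundant as Ebf2 with 21.4 ± 0.959 and 21.1 ± 1.28 RPKM (SD, n = 3 each).

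Of 10 tested C/EBP relatives and bZIP partners, 5 were higher and 5 lower, and Cebpe was listed at 0 in all cultures. Jun, which encodes a subunit of AP-1, was lower in Ucp1-KO cells, with 23.1, 22.9 and 19.8 RPKM in WT cultures and 16.3, 19.5 and 16.0 in Ucp1-KO cultures (log2 fold change -0.33, standard error 0.11, limma adjusted p = 0.868). Among the 10 other genes of the IRF list, 7 were higher and 3 lower, with 0 at an unadjusted p under 0.05 in limma (smallest adjusted p = 0.884). Of 15 negative regulators of the brown programme, 8 were higher and 7 lower, with a median log2 fold change of 0.07 and 0 at an unadjusted p under 0.05 in limma (smallest adjusted p = 0.876). Rb1, the retinoblastoma gene, had 23.6 ± 1.62 and 22.7 ± 1.58 RPKM (SD, n = 3 each).

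Brown adipocyte targets of these factors had log2 fold changes on both sides of 0. Of 17 tested, 12 were higher and 5 lower in Ucp1-KO cells, and 0 passed the adjusted threshold. Those with an unadjusted p under 0.05 were Fabp3, Pank1 and Cpn2 on the higher side, and Ucp1, the deleted gene, and Kng2 on the lower side. Pank1, which encodes a pantothenate kinase of coenzyme A synthesis, had 11.8, 7.53 and 9.18 RPKM in WT cultures and 16.8, 16.4 and 15.3 in Ucp1-KO cultures (log2 fold change 0.73, standard error 0.15, limma adjusted p = 0.868). Fabp3, a fatty acid-binding protein gene, had 11.5, 5.71 and 12.7 RPKM in WT cultures and 17.0, 22.1 and 20.8 in Ucp1-KO cultures (log2 fold change 0.99, standard error 0.27, limma adjusted p = 0.868). Neither gene overlapped between genotypes. Of 15 general adipocyte targets, 13 were higher and 2 lower, and only Cfd, which encodes adipsin, had an unadjusted p under 0.05 (log2 fold change -0.72, standard error 0.26, limma adjusted p = 0.868).

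Dexamethasone was part of the induction medium of both genotypes, and Cebpd and Zbtb16 are known to respond to glucocorticoids. Of 14 further glucocorticoid-responsive genes, 4 were higher and 10 lower in Ucp1-KO cells, with a median log2 fold change of -0.14 and 0 past the adjusted threshold. Errfi1, which encodes an inhibitor of the EGF receptor, had 27.6, 28.4 and 25.3 RPKM in WT cultures and 16.5, 18.2 and 19.7 in Ucp1-KO cultures (log2 fold change -0.56, standard error 0.10, limma adjusted p = 0.868). Mt1, a metallothionein gene, had a log2 fold change of -0.76 (standard error 0.28, limma adjusted p = 0.868). The sum of the 14 genes was 1916, 4019 and 3165 RPKM in WT cultures and 1350, 1898 and 2106 in Ucp1-KO cultures, of which the metallothionein genes Mt1 and Mt2 made up 57.04% to 80.2%. Without them it was 681, 796 and 754 RPKM in WT cultures and 580.0, 688 and 695 in Ucp1-KO cultures, with overlap. Fkbp5 (log2 fold change 0.20) and Tsc22d3 (0.21), widely used glucocorticoid targets, had higher means in Ucp1-KO cells without passing the unadjusted threshold. The part of the glucocorticoid response in the levels of Cebpd and Zbtb16 was not tested.

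Cultures of differentiated precursors can hold other cells, and in bulk RNA fewer cells of a type and less RNA per cell cannot be told apart. All 8 adipocyte markers were abundant in every culture, and all 8 had a higher mean in Ucp1-KO cells, as had 8 of the 10 regulators. The median log2 fold change of the 8 markers was 0.15, with 0 at an unadjusted p under 0.05 in limma (smallest adjusted p = 0.876). These markers are all in the list of general adipocyte targets too, where 13 of 15 tested genes were higher. The 2 lower genes of that list, Cfd (log2 fold change -0.72) and Pnpla2 (-0.03), are not among the 8 markers. The sum of the 8 markers ran from 31260 to 34564 RPKM over all cultures, but Fabp4 alone made up 80.2% to 84.8% of it. Without Fabp4 it was 5665, 4819 and 4861 RPKM in WT replicates 10, 11 and 12 and 6538, 5431 and 5251 RPKM in Ucp1-KO replicates 13, 14 and 15, with overlap through WT replicate 10. The part of adipocyte content in the levels of the regulators was not tested. Of 14 stromal and preadipocyte markers, 11 were tested and all 11 had a log2 fold change below 0, although the mean RPKM of Ly6a was higher in Ucp1-KO cells, with a median log2 fold change of -0.48 and with Dcn (-0.85) and Lum (-1.20), genes of matrix proteoglycans, at an unadjusted p under 0.05. Their sum ran from 993 to 2186 RPKM in WT cultures and from 868 to 1399 in Ucp1-KO cultures and was highest in WT replicate 11, the culture with the highest Cebpd and the lowest Irf4, Ppargc1a and Ppargc1b, and lowest in Ucp1-KO replicate 15. The collagen genes Col1a1, Col1a2 and Col3a1 made up 66.9% to 80.3% of it. In Ucp1-KO replicate 13, where Cebpd was lowest, the sum was the next highest after WT replicate 11 with the collagens (1399 RPKM). Without them (324 RPKM) it was below WT replicates 10 and 11 and Ucp1-KO replicate 14. Single markers went both ways in that culture. Lum was at its lowest of all cultures (1.31 RPKM), Fbn1 at its highest (45.6 RPKM), and Thy1 (78.8 RPKM) was exceeded only in WT replicate 11. The part of stromal cells in these results was not tested.

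Irf4 is also a gene of lymphocytes and macrophages. Of 9 lymphocyte markers, 7 were listed at 0 in all cultures, among them Ms4a1, Cd3e, Cd8a and Ncr1, and the sum of the 9 was at most 0.144 RPKM. Of 9 macrophage markers, 8 were listed under the symbol searched, and none of the 8 was at 0 in all cultures. Their sum was 59.3, 184 and 111 RPKM in WT cultures and 165, 812 and 42.6 in Ucp1-KO cultures. The macrophage sum was highest in Ucp1-KO replicate 14, which had the next highest Irf4, and lowest in Ucp1-KO replicate 15, which had the highest Irf4. The part of macrophages in the level of Irf4 was not tested. Endothelial markers summed to between 3.77 and 41.1 RPKM in WT cultures and between 7.82 and 18.6 in Ucp1-KO cultures, with 6 of 8 tested and all 6 lower. Cell cycle markers were all 8 higher in Ucp1-KO cells, with sums from 14.98 to 24.9 RPKM in WT cultures and from 20.8 to 59.8 in Ucp1-KO cultures. Of 10 skeletal muscle markers, 4 were tested and all 4 were higher, with sums from 5.44 to 10.4 RPKM and from 5.77 to 25.4 RPKM, and Myf5 was listed at 0. Myl1 (log2 fold change 0.75, without overlap) and Tnnt3 (0.88, with overlap), genes of the contractile apparatus, had an unadjusted p under 0.05. The part of cell cycle and muscle gene expression in the levels of the regulators was not tested.

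**Figure D5:**
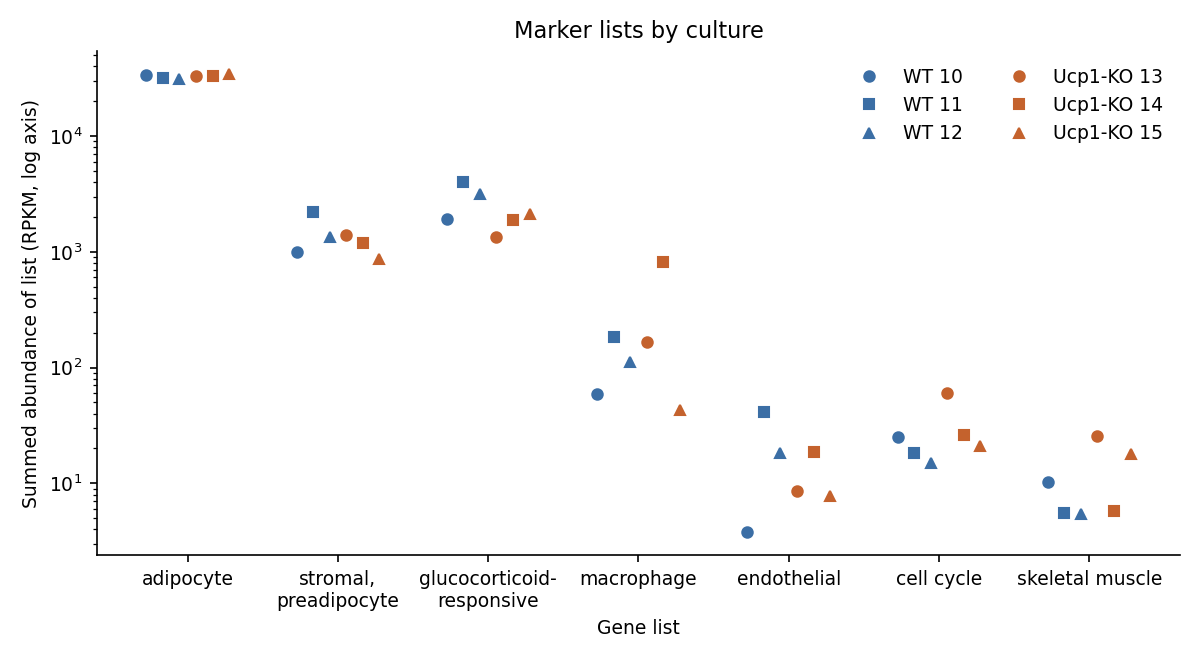
Summed abundance of each marker list in RPKM on a log axis, with 1 point per culture (blue WT, orange Ucp1-KO). Adipocyte markers lie between 31260 and 34564 RPKM in all cultures, the stromal and glucocorticoid-responsive sums are highest in WT replicate 11, and the macrophage sum is highest in Ucp1-KO replicate 14.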

How the data were processed

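RNA of 3 WT and 3 Ucp1-KO cultures was sequenced by the authors as single reads of 50 bases from TruSeq libraries and mapped to the mouse genome (NCBI build 38). Only reads with a unique place were counted, per transcript, with Genomatix tools, and the authors deposited the result as RPKM per culture. All 6 value columns of the 168326 rows were matched to a culture by name. Groups and replicate numbers came from the titles, and no number is shared between genotypes.

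RefSeq rows (28890) were used, 16865 of them with a mean of at least 0.5 RPKM, and for a gene with several rows the most abundant was printed. The genotype effect on log2(RPKM + 1) was fitted in limma 3.58.1 (R 4.3.3) with moderated variances that follow abundance and no covariate, with Benjamini-Hochberg adjustment over all rows. For single genes and ratios, exact two-sided permutation was used as well (scipy 1.17.1, Python 3.11.15). Totals of between 14989604 and 17727653 reads were worked out from the RPKM and the lengths of Ensembl transcripts, for which 93.5% to 93.7% of values in a culture came within 0.05 of a whole read. The length of a RefSeq row was taken as the smallest, or a multiple near the annotated length, that gave whole reads within rounding in all cultures, which was found for 16862 of the rows tested, so this count is partly set by the search. The floor of 3 reads covers counting error only, since PCR copies cannot be recognised. The steps were tested on simulated data. P-values measure the spread between these cultures.

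The 10 genes and all lists were chosen with earlier results of these data known. Named genes are the 10 regulators, the 2 most abundant of each list, those with an unadjusted p under 0.05, Ucp1 and the 3 nearest profiles of regulators with at least a 2-fold range; some of them are not reported here, and Fkbp5, Tsc22d3 and the sums without Fabp4, Mt1, Mt2 or the collagens were chosen after their values were seen. Overlapping genes were taken from the GENCODE annotation, coordinates and promoters from RefSeq on GRCm38.p6. Alternatives were 0.1 in place of 1 RPKM, no minimum, 1 transcript per gene, all annotations, median-of-ratios scaling, limma-voom on the reads, summed RefSeq rows, and leaving out each culture.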

Additional observations from a re-analysis of the deposited data

How the results depend on the processing

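Of 120 recomputed log2 fold changes of the 10 regulators, 119 kept the direction of the reported value and 0 passed an adjusted p under 0.05 in limma. The exception was Ebf2, with -0.045 without Ucp1-KO replicate 15. Its values with each culture left out ranged from -0.045 to 0.19. The settings with no minimum, 1 transcript per gene or all annotations leave the log2 fold change of a regulator the same by construction. Only its p-value can move there, so these settings do not test direction. With each culture left out in turn, between 1 and 3 regulators had an unadjusted p under 0.05 in limma (2 with all cultures). Between 3 and 6 regulators did not overlap between genotypes (3 with all cultures). The 6 came without WT replicate 10 or Ucp1-KO replicate 13, where fewer cultures make overlap rarer. Between 6 and 25 list genes had an unadjusted p under 0.05 in limma (15 with all cultures). Shares of all transcripts were worked out with all cultures only, so the counts with a culture left out have no background to be read against. The difference in the log2 ratio of Ppargc1a to Ppargc1b was 0.10 and ranged from -0.049 without Ucp1-KO replicate 13 to 0.24, and that of Cebpa to Cebpd from 0.74 to 1.08. Summing RefSeq rows kept 4 of 10 places in the order of levels, as reads shared by the 4 rows of Ehmt1 or the 2 of Ppargc1a and Prdm16 are then counted repeatedly. No paired analysis was possible because the genotypes share no replicate number and no label pairs the cultures. Read numbers limit precision most for Irf4, with 45 to 163 reads per culture.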

Other observations

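Other transcription factor genes of the lists varied between cultures without following genotype. Ddit3, the stress-induced C/EBP relative CHOP, had 44.1, 172 and 184 RPKM in WT replicates 10, 11 and 12 and 29.9, 124 and 184 RPKM in Ucp1-KO replicates 13, 14 and 15. Atf4, its upstream activator, had 85.9, 156 and 153 RPKM in WT and 74.9, 109 and 154 RPKM in Ucp1-KO cells, so that WT replicate 10 and Ucp1-KO replicate 13 were lowest for both genes. Irf7, an interferon-induced relative of Irf4, had 95.4 RPKM in Ucp1-KO replicate 14 and between 5.81 and 17.3 RPKM in the other cultures. Lyz2, a macrophage gene, was also highest in that culture, with 657 RPKM against 29.98 to 127 RPKM elsewhere.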
